A study of Oryza sativa Indica Group with 2 samples.

Results

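Nuclear genes of the photosynthetic electron chain and of the chloroplast ATP synthase were followed in chilled rice leaves: those for the Rieske protein, plastocyanin, ferredoxin 1, a pair of leaf ferredoxin-NADP reductases (FNR) and the gamma, delta and b' subunits of the ATP synthase. They were taken by locus identifier, and all 8 of the 8 listed loci were among the 3946 loci of the authors' deposited comparison table. The 8 loci had 12 coding-sequence models in the table. It held 8.61% of the 67393 models that the authors tested, whatever their read number. Genes with many reads, such as these, can enter it with small differences. The study compared leaves of 2 indica rice lines whose names share a stem, a cold-tolerant and a cold-sensitive one. Seedlings of both lines with 3 leaves, about 20 days old, spent 6 h at 10 °C in dim light (40 µmol m-2 s-1), and 1 library per line was made from leaves pooled over 9 plants. No unchilled plants were among the samples, so the data compare chilled lines and hold no response to cold. Neither the labels nor the header of the table say which line is the numerator of the authors' fold change. In what follows, library A is the numerator and library B the denominator.

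In the thylakoid membrane, cytochrome b6f passes electrons from plastoquinol to plastocyanin, a small copper protein of the lumen that carries them to photosystem I. On the stromal side photosystem I reduces ferredoxin, and FNR uses reduced ferredoxin to make NADPH. The protons moved into the lumen on the way drive the chloroplast ATP synthase. Cytochrome b6f and the ATP synthase are built from plastid-encoded and nuclear-encoded subunits, and the genes described here are nuclear.

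RPM here means the reads of a gene for each 1e+06 reads of its library, as scaled by the authors. Every one of the 8 genes had a lower read level in library A than in library B under the authors' scaling. The log2 ratios of A over B ran from -0.88 for ferredoxin 1 to -0.24 for the FNR gene LOC_Os02g01340, with a median of -0.56, and the last of these genes turned to 0.07 when all ratios were centred on the median of the table. Summed over the 8 genes, library A had 65852 reads or 5126 RPM and library B had 93161 reads or 7666 RPM, a log2 ratio of -0.58 (95% exact interval -0.60 to -0.57). With 1 library per line there is no replicate, no test between the lines was possible, and all intervals cover counting error only. Fewer cells of a type and less RNA per cell cannot be told apart in these pooled leaves.

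The scaled library sizes behind these levels were 12846997 reads for A and 12152372 for B, and the model with most reads stands for a gene. Of the 67393 models that the authors tested, 8.61% were in the table, whose adjusted p-values all lie below 0.05. The largest adjusted p of the 12 models was 7.45e-38 from edgeR in the authors' deposited table. These p-values exceeded those of an exact binomial test on the same reads by 0.12 or less on the log10 scale wherever they were not given as 0, so they hold little beyond counting error. The labelled tissue was checked with 6 genes of leaf photosynthesis and photorespiration, and all 6 were in the table with 13682 to 699455 reads. The shoot meristem gene OSH1 and the secondary wall genes OsCESA4, OsCESA7 and OsCESA9 were not in the table, which gives no level for them, since a gene of like level in both libraries is also absent. The leaf genes differed between the libraries as well, from a log2 ratio of -1.24 for the light-harvesting gene CAB2R (936 RPM in A and 2209 RPM in B) to -0.08 for the Rubisco activase gene RCA under the authors' scaling, with 3 of the 6 higher in A after centring. The Rubisco small subunit gene RBCS (LOC_Os12g17600) stood at -1.19 (-1.21 to -1.17). Their part in the results below was not tested.

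The Rieske protein is the iron-sulfur subunit of cytochrome b6f that takes electrons from plastoquinol. Its gene, LOC_Os07g37030 on chromosome 7, had 9202 reads in library A and 11597 in library B. These are 716 RPM in A (95% exact Poisson interval 702 to 731) and 954 RPM in B (937 to 972). The log2 ratio was -0.41 (-0.45 to -0.37), a level 1.33 times as high in B as in A, and it kept its sign at -0.11 when centred.

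Plastocyanin, the carrier that takes electrons from cytochrome b6f, stood further from 0. The gene LOC_Os06g01210 on chromosome 6 had 12013 reads or 935 RPM (918 to 952) in library A and 19701 reads or 1621 RPM (1599 to 1644) in library B. It had the most reads of the 8 genes. The log2 ratio was -0.79 (-0.83 to -0.76), a level 1.73 times as high in B.

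Per read of the Rieske gene there were 1.31 reads of plastocyanin in library A and 1.70 in library B. Such a comparison of a pair of genes does not depend on how the libraries are scaled, and the log2 ratio of plastocyanin minus that of Rieske was -0.38 (-0.43 to -0.33). The Rieske gene and the gene of the electron acceptor of cytochrome b6f thus lay apart by more than counting error. Levels of different genes are not compared with each other, because lengths of the coding-sequence models were not used here.

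**Figure D1:**
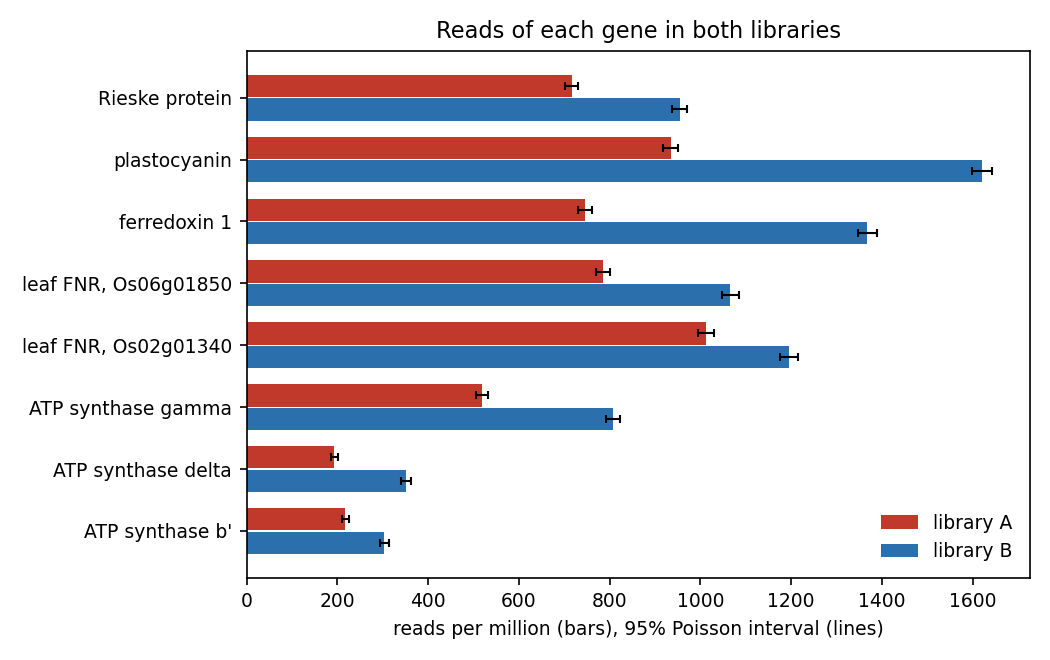
RPM of each gene (horizontal axis, from 0) in library A (upper bar of each pair) and library B (lower bar), with 95% exact Poisson intervals. For each of the 8 genes the bar of library A is the shorter under the authors' scaling. Centring would turn this round for the FNR gene LOC_Os02g01340 alone. The intervals of each pair do not overlap, which is largely set by entry into the table, since entry needs an adjusted p below 0.05. The share of other loci without overlap was not computed.

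On the stromal side, ferredoxin 1 had the lowest log2 ratio of the 8 genes. LOC_Os08g01380 on chromosome 8 had 9575 reads or 745 RPM (730 to 760) in library A and 16619 reads or 1368 RPM (1347 to 1388) in library B. Its log2 ratio was -0.88 (-0.91 to -0.84), a level 1.83 times as high in B. A second model of the locus had 2464 reads in A and 4305 in B, and its log2 ratio of -0.89 (-0.96 to -0.81) differed from that of the first by less than its counting error.

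The leaf FNR genes hand the electrons of ferredoxin on to NADP+, and both had ratios nearer to 0 than their electron donor. LOC_Os06g01850 on chromosome 6, listed as LFNR1 in RefSeq, had 10095 reads or 786 RPM (771 to 801) in library A and 12954 reads or 1066 RPM (1048 to 1084) in library B. Its log2 ratio was -0.44 (-0.48 to -0.40).

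The other leaf FNR gene, LOC_Os02g01340 on chromosome 2, had 13016 reads or 1013 RPM (996 to 1031) in library A and 14523 reads or 1195 RPM (1176 to 1215) in library B. Its log2 ratio of -0.24 (-0.27 to -0.20) was the closest to 0 among the 8 genes. A second model, with 11190 reads in A and 12704 in B, stood at -0.26 (-0.30 to -0.23). It may hold many of the same reads and is not counted as a separate measurement. The gene LOC_Os02g01340 was lower in A as the authors scaled the libraries and also with the totals of the table. After centring it was higher in A at 0.07, so its direction depends on the scaling.

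Set against each other, the electron donor and its reductases were in different proportions in the libraries. There were 0.736 reads of ferredoxin 1 per read of the FNR gene LOC_Os02g01340 in library A and 1.14 in library B, a difference between log2 ratios (ferredoxin minus FNR) of -0.64 (-0.69 to -0.59) and the widest of the 28 pairs. With LOC_Os06g01850 in place of that gene the numbers were 0.948 in A and 1.28 in B, a difference of -0.44 (-0.49 to -0.38). The FNR pair itself was also in unequal proportion, with 0.776 reads of LOC_Os06g01850 per read of LOC_Os02g01340 in library A and 0.892 in library B, a difference of -0.20 (-0.25 to -0.15). The FNR genes are related in sequence, and the sources used here do not state how reads that match more than 1 model were treated. Some loci of the table held identical values, as LOC_Os04g16828 and LOC_Os05g22722 did, each with 1175 reads over both libraries at a log2 ratio of 0.28. A read may thus have been counted for more than 1 locus. Sharing of reads between the FNR genes was not tested, and the interval of the FNR pair treats their reads as separate.

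Of the ATP synthase genes, gamma encodes the rotating central stalk of the catalytic head, delta joins the head to the outer stalk, and b' is part of that outer stalk. The gamma gene LOC_Os07g32880 on chromosome 7 had 6666 reads or 519 RPM (506 to 531) in library A and 9812 reads or 807 RPM (792 to 824) in library B. Its log2 ratio was -0.64 (-0.68 to -0.59). The gamma gene lay in the middle of the order of the 8 genes.

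The delta gene LOC_Os02g51470 on chromosome 2 was close to ferredoxin 1 in its ratio. It had 2487 reads or 194 RPM (186 to 201) in library A and 4270 reads or 351 RPM (341 to 362) in library B, a log2 ratio of -0.86 (-0.93 to -0.79). Its 3 models had identical reads and count as 1 measurement.

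The b' gene LOC_Os03g17070 on chromosome 3 had 2798 reads or 218 RPM (210 to 226) in library A and 3685 reads or 303 RPM (294 to 313) in library B. Its log2 ratio was -0.48 (-0.55 to -0.41), about that of the Rieske and LOC_Os06g01850 genes. The 3 subunits of this complex thus differed in their log2 ratios, by -0.22 (-0.31 to -0.14) for delta minus gamma, by -0.16 (-0.24 to -0.08) for gamma minus b', and by -0.38 (-0.48 to -0.28) for delta minus b'. In reads, there were 0.889 of delta per read of b' in library A and 1.16 in library B.

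**Figure D2:**
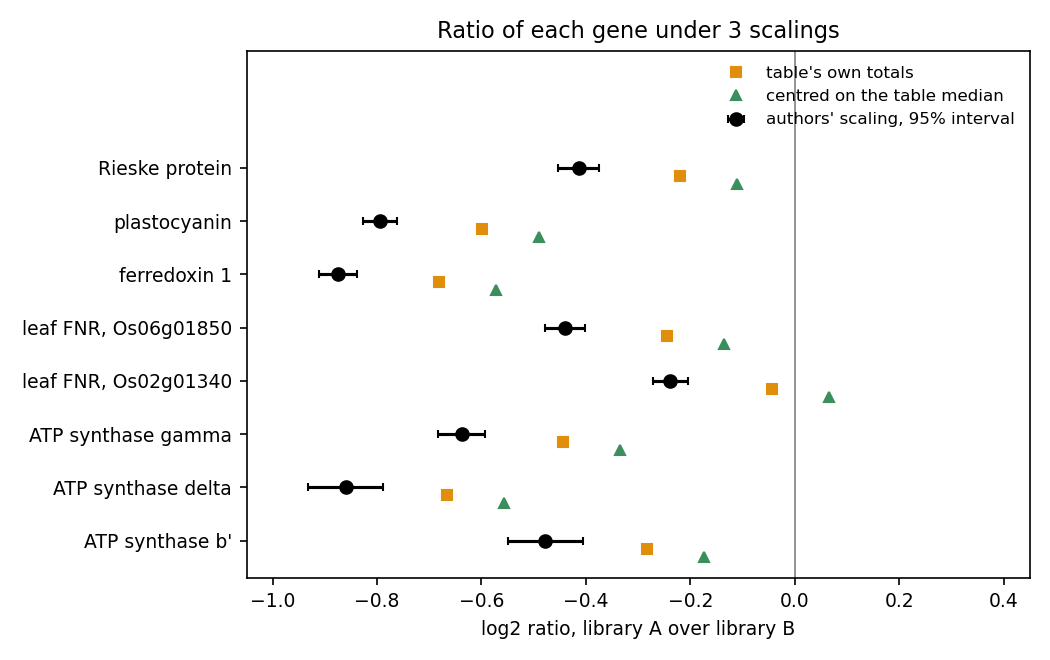
Log2 ratio of library A over library B (horizontal axis) for each gene, with circles for the authors' scaling and its 95% exact interval, squares for the table's own totals and triangles for ratios centred on the median of the table. The symbols lie left of 0 except the triangle of the FNR gene LOC_Os02g01340, at 0.07.

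Ordered by log2 ratio from the lowest, the genes were ferredoxin 1, delta, plastocyanin, gamma, b', the FNR gene LOC_Os06g01850, the Rieske gene and the FNR gene LOC_Os02g01340. Of the 7 neighbouring pairs in this order, 4 differed by no more than counting error: ferredoxin 1 and delta, delta and plastocyanin, b' and LOC_Os06g01850, and LOC_Os06g01850 and the Rieske gene. Among all 28 pairs, the unadjusted 95% interval of the difference left out 0 in 23 and held 0 in 5. With this many reads small differences can leave out 0, as for ferredoxin 1 minus plastocyanin at -0.08 (-0.13 to -0.03). The share for pairs of other loci with like read numbers was not computed. The count of 23 is therefore not read as a trait of these genes. Neighbours in this order are close by construction, so the order describes the ratios and is no test of a grouping. Ferredoxin 1, delta and plastocyanin lay at the low end, and b', LOC_Os06g01850 and Rieske lay together nearer to 0. The spread from the lowest to the highest ratio was 0.64 and does not depend on the scaling. Since the plants of a line went into a single pool, the spread between plants is unknown for each of these differences.

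The directions were set beside those of the table as a whole. Under the authors' scaling 58.6% of the 3946 loci were higher in library B, and the median log2 ratio of the loci read in both libraries was -0.31. Many of these loci had few reads, with a median of 626 over both libraries, against 6483 to 31714 for the 8 genes. A nearer background, chosen after the values were seen, is the 239 loci with at least as many reads as the b' gene, which include the 8 genes. Of these, 74.5% were higher in B, and the median log2 ratio was -0.23. The count of 8 of 8 higher in B is therefore read against that background.

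Centring shifts by the median over all 5804 models of the table, not over its loci. Centring and the table's own totals raise every log2 ratio, by 0.30 and 0.19. After centring, 7 of the 8 genes were higher in B, against 38.5% of the 239 loci, and LOC_Os02g01340 was higher in A. The share over all loci, 50.2%, is set by the centring itself and is no background. The table holds only models that passed the authors' limit, so its median need not mark equal levels in the libraries. With the table's own totals, 8 of 8 were higher in B, against 54.4% of the 239 loci. None of the 8 genes reached an absolute log2 ratio of 1, which 27.2% of all loci of the table did (those with 0 reads in a library included) but only 5.44% of the 239 loci with many reads. In the range of read numbers of the 8 genes, 204 loci were in the table, and the smallest absolute log2 ratio among them was 0.06. Of these loci, 33.3% lay within 0.2 of 0, so the table also holds small differences at this depth.

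**Figure D3:**
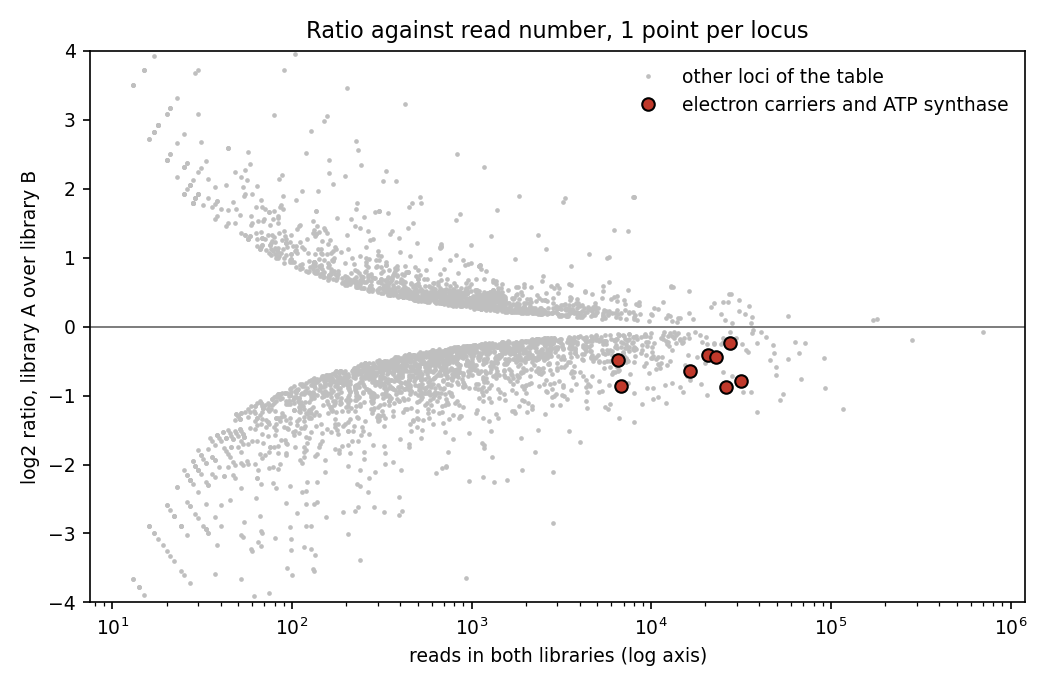
Log2 ratio of library A over library B against the reads of both libraries together (log axis), with 1 grey point per locus of the table read in both libraries, cropped at a log2 ratio of 4 in either direction, and the 8 genes as red circles. The 8 genes lie among the loci with many reads and, under the authors' scaling, between -0.88 and -0.24 (LOC_Os02g01340 lies above 0 when centred), and the empty band around 0 narrows as reads increase.

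Genes of neighbouring steps were counted from lists. All 9 listed nuclear subunits of photosystem I, which accepts electrons from plastocyanin and hands them to ferredoxin, were found, and each was higher in library B under all 3 scalings, with a median log2 ratio of -0.89. PsaD (LOC_Os08g44680), the subunit at which ferredoxin docks, had 551 RPM in A and 1095 RPM in B, at -0.99 (-1.03 to -0.95) on the log2 scale, and PsaO (LOC_Os04g33830) stood at -1.01 (-1.12 to -0.91). Of these 9 genes, 6 had a lower ratio than any of the 8 carrier and ATP synthase genes. Of 9 listed nuclear genes of photosystem II, 8 were in the table and higher in B under the authors' scaling, 7 after centring, with a median of -0.76. The ratios in that list spanned a wide range. PsbR (LOC_Os08g10020), with 2630 RPM in A and 3096 RPM in B, had -0.24 (-0.26 to -0.21) and turned to 0.07 when centred. PsbQ (LOC_Os07g36080) had -1.02 and PsbX (LOC_Os03g21560), from 106 reads in A and 218 in B, had -1.12 (-1.47 to -0.78). The differences between these lists and the 8 genes were not tested.

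For the listed genes of cyclic electron flow and redox control the median lay closer to 0 than for the 8 genes. Of 7 such genes 4 were in the table, all 4 higher in B under the authors' scaling, 2 with the table's own totals and 1 after centring, with a median log2 ratio of -0.20. PGR5 (LOC_Os08g45190), a protein of the ferredoxin-dependent cyclic route, had 90.1 RPM in A and 119.7 RPM in B, a log2 ratio of -0.41 (-0.52 to -0.30). NADP-MDH (LOC_Os08g44810), the NADP-malate dehydrogenase of the malate valve, stood at -0.23 and was higher in A at 0.07 when centred. PGRL1 (LOC_Os03g64020), the partner of PGR5, stood at -0.16 and was higher in A under both other scalings. PTOX, NTRC and STN7 were not in the table.

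A root-type ferredoxin gene and a root-type FNR gene, forms known from non-green tissue, lay on the other side of 0. Of 5 listed relatives of ferredoxin and FNR 2 were in the table, and both were higher in library A under all 3 scalings. Under the authors' scaling 1634 of all 3946 loci were higher in A. The root-type FNR gene LOC_Os07g05400 and the ferredoxin genes LOC_Os05g37140 and LOC_Os03g48040 were not in the table. The root-type FNR gene LOC_Os03g57120 had 855 reads or 66.6 RPM in A and 509 reads or 41.9 RPM in B, a log2 ratio of 0.67 (0.51 to 0.83). The root-type ferredoxin gene LOC_Os01g64120 had 236 reads or 18.4 RPM in A and 143 reads or 11.8 RPM in B, a ratio of 0.64 (0.34 to 0.95). Root-type forms carry electrons from NADPH to ferredoxin for nitrogen assimilation, the reverse of the leaf route. Of 3 listed genes for mitochondrial ATP synthase none was in the table, and a gene outside the table has no value here.

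**Figure D4:**
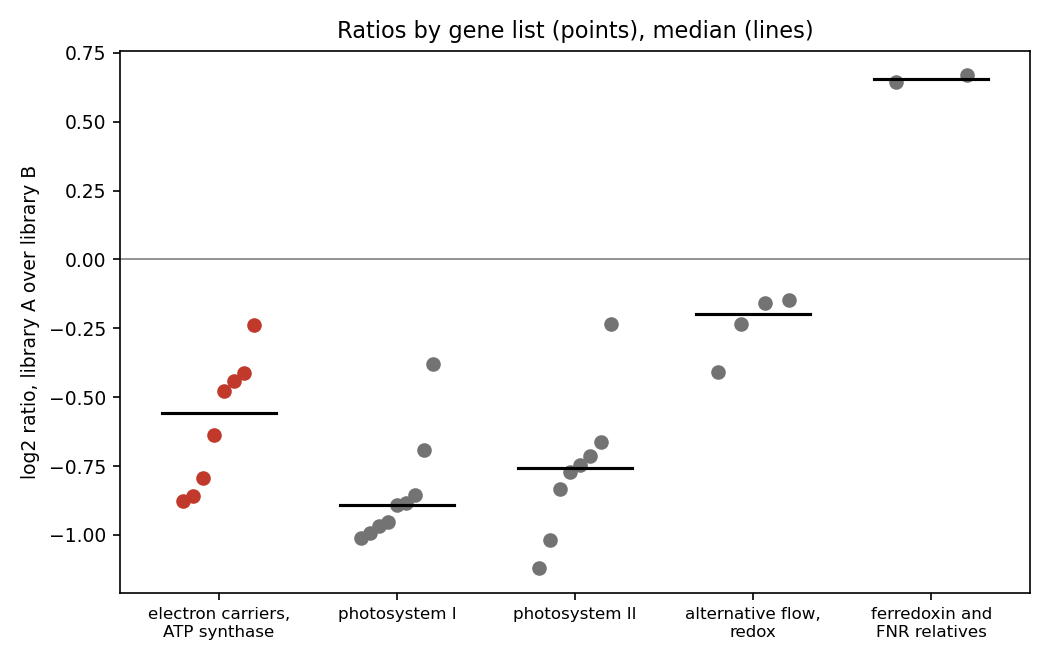
Log2 ratio of library A over library B (vertical axis) for each gene found in the table, by list, with a line at each list's median. The 8 electron carrier and ATP synthase genes (red) have a median of -0.56 under the authors' scaling (-0.25 when centred, with LOC_Os02g01340 above 0), the photosystem lists -0.89 and -0.76, the alternative flow list -0.20, and both root-type relatives lie above 0.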

How the data were processed

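Leaf poly-A RNA was read as single-end reads of 100 bp, per the labels' protocols. The submitters' processing notes name Bowtie 0.12.7 and edgeR. The sources used here give neither genome build, annotation release, strand use nor dispersion. Unequal alignment of the lines was not tested. Per the file headers, the authors deposited 2 log2 columns, the mean log2 share of reads and the log2 fold change, beside the p-value of each of 5804 models and its adjusted form. The largest adjusted p was 0.0499. The number of models tested comes from the relation of p to adjusted p.

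Reads were recovered by solving the log2 columns for each library's share. All values (100%) were whole within 1e-06 of a read in both libraries, and the recovery was tested on simulated data. Library sizes are scaled sizes. A locus is represented by its model with most reads. Intervals are 95% exact: Poisson for levels, Clopper-Pearson for ratios, and conditional odds ratios for pairs of genes. PCR copies are not independent molecules, so intervals and floors cover counting error only.

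The 8 genes and the lists were chosen with earlier results of these data known. All 8 genes are named; in each other list the 2 largest absolute ratios and the gene with most reads are named. With 2 libraries no likeness of pattern was measured. Gene names rest on field knowledge: 4 of 8 were found in the RefSeq gene table of assembly ASM3414082v1, on the chromosome that the locus names, with positions that differed from the locus number's by at most 2.19% of the chromosome. Over all lists it was 20 of 51, of which CAB1R missed the 10% limit at 10.9%. No other locus had reads within 1% of those of any of the 8 genes in both libraries. Alternatives were other scalings, pseudocounts, models and limits. Python 3.11.15 and SciPy 1.17.1 were used.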

Additional observations from a re-analysis of the deposited data

How the results depend on the processing

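The number of the 8 genes in the table was 8 with an adjusted p of at most 0.01 and 0 with an absolute log2 ratio of at least 1. Centred on the median of the table, the log2 ratios were -0.49 for plastocyanin, -0.57 for ferredoxin 1, -0.14 for LOC_Os06g01850, 0.066 for LOC_Os02g01340 (a reversal), -0.11 for Rieske, -0.33 for gamma, -0.56 for delta and -0.17 for b', with a median of -0.25. With the table's own totals they were -0.60, -0.68, -0.25, -0.044, -0.22, -0.44, -0.67 and -0.28 in the same order, with a median of -0.36. Both shifts are alike for every gene by construction. The genes of alternative flow higher in B numbered 4 under the authors' scaling, 1 when centred and 2 with the table's totals. Counting every model moved the median to -0.72, since delta enters 3 times. Pseudocounts of 1 and 0.1 RPM and the model with fewest reads left each of the 8 ratios within its counting interval. No paired analysis was possible because each line has 1 library. Depth gives each level an interval of 1.40% to 3.95% to either side. The pairwise comparisons and the background of loci with many reads were added after seeing the data.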
